A study of Mus musculus with 18 samples.

Results

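The comparison asks whether mouse macrophages answer the ligand BMP4 differently when their label says that Smad1 was deleted. It is the difference of 2 responses: the effect of BMP4 in knockout-labelled cells minus its effect in floxed-labelled cells. It rests on 12 of the 18 libraries of the study, 3 in each of 4 groups. The other 6 libraries (TGF-β1) entered the same fit. They share in the filter on low counts, the scaling, and the estimates of the spread and of the effects of library number. The libraries were chosen by treatment and genotype label, not by their values. The cells were bone marrow macrophages grown from the tibia of mice 2 to 3 months old. All of the mice carried loxP-flanked Smad1 alleles (Smad1fl/fl). In the groups called knockout-labelled here (MyS1KO) they also carried LyzM-Cre, a Cre recombinase expressed from the Lyz2 locus and thus active in myeloid cells. The labels of the floxed-labelled groups name no Cre. Marrow was cultured for 24 h in 12 ng/ml CSF-1 with medium conditioned by WEHI-3 cells. Cells that did not adhere were moved to 120 ng/ml CSF-1 for 48 h. Serum was then withheld for about 16 h, and BMP4 was added at 50 ng/ml for 4 h or not at all. Nothing in the labels ties the 3 libraries of a group to separate mice or cultures, so p-values measure the spread between these libraries, which may be technical. The series text reports loss of the Smad1 protein by western blot, a measurement not analysed here.

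BMP4 binds a complex of type I and type II serine/threonine kinase receptors, and the activated type I receptor phosphorylates the receptor-regulated Smads Smad1, Smad5 and Smad9. These join Smad4, enter the nucleus and bind DNA. The usual early targets are the Id genes, which encode inhibitors of basic helix-loop-helix transcription factors, and the inhibitory Smads Smad6 and Smad7, which dampen the pathway. Because Smad1, Smad5 and Smad9 share this role, the response of cells that lack one of them can be asked of expression data.

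Total counts ran from 15153296 to 24639163 per library. Levels are given in CPM, counts relative to the library total after TMM scaling, and 3 counts, the limit that a count of 0 allows, correspond to 0.122 to 0.198 CPM (counting error only). Lyz2, the gene that carries the Cre insertion, went against the genotype labels. It stood at 15089, 17290 and 15694 CPM in untreated and 17786, 15928 and 16546 CPM in BMP4-treated knockout-labelled libraries 1 to 3. Floxed-labelled libraries 2 and 3 held 9756 and 9683 CPM untreated and 9872 and 9564 CPM with BMP4, but those numbered 1 held only 62.1 and 74.3 CPM. The floxed-labelled libraries numbered 1 thus stand apart, and main results are also given from the 15 libraries without these 3 (1 of which had received TGF-β1). Directions below follow the labels as deposited: with the labels exchanged, every difference between them would have the opposite sign, the 7 calls included. The targeted gene, Smad1, lies on chromosome 8 from 79338395 to 79399518 (mm10) and was detected in all 12 libraries. Its level in libraries 1 to 3 was 26.8, 26.0 and 26.0 CPM in untreated and 26.2, 24.8 and 24.3 CPM in BMP4-treated knockout-labelled cells. In floxed-labelled cells it was 30.02, 30.8 and 31.1 CPM untreated and 31.0, 29.7 and 27.6 CPM with BMP4. All 6 knockout-labelled values lay below all 6 floxed-labelled ones, by a small margin. Counts over the whole gene can include exons outside the deleted part, and the labels do not name the deleted exon, so Smad1 does not check the labels.

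Of 14684 genes tested, 7 differed in their BMP4 response between the labels, which is 0.0477%, and all 7 had the lower response in knockout-labelled cells. None of the 7 encodes a protein: 6 were long non-coding or unclassified transcripts of low level and 1 was Malat1, an abundant nuclear RNA. A gene was called when edgeR's quasi-likelihood test gave a p under 0.05 after Benjamini-Hochberg adjustment over all genes tested (edgeR adjusted p), with the library number as a block within each label. At an unadjusted p under 0.05, 1209 genes differed (8.23%), 567 with the higher and 642 with the lower response in knockout-labelled cells. Among the 12035 protein-coding genes, 0 were called by edgeR and 880 had an unadjusted p under 0.05. DESeq2 called 9 genes in all, 1 of them protein coding. Without the block edgeR called 0 genes (839 at an unadjusted p under 0.05), and from the 15 libraries it also called 0 (1112 unadjusted). The count moved from 7 to 1 without untreated knockout-labelled library 3, without untreated floxed-labelled library 1 or without BMP4-treated floxed-labelled library 1. It moved to 4 without untreated knockout-labelled library 1, BMP4-treated knockout-labelled library 2 or BMP4-treated floxed-labelled library 2 or 3, to 21 without BMP4-treated knockout-labelled library 1 and to 34 without untreated knockout-labelled library 2. Class and direction moved with these counts. Of the 34 genes 16 were protein coding and 12 had the higher knockout-labelled response, and of the 21 genes 10 and 8. Without untreated floxed-labelled library 2, 10 genes were called, of which 3 were protein coding and 2 higher. Without the low-count filter 94 genes were called, of which 42 were protein coding and 34 higher.

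Each response alone gave more calls. In knockout-labelled cells 472 genes (3.21%) changed with BMP4, 167 higher and 305 lower. In floxed-labelled cells 53 genes (0.361%) changed, 16 higher and 37 lower. Without the block these counts were 84 and 0, and from the 15 libraries they were 442 and 18. Without the low-count filter they were 687 and 250, and the balance of the knockout-labelled calls turned to 399 higher and 288 lower. The knockout-labelled count fell to 91 without untreated library 3, 155 without untreated library 1, and 171, 266 and 164 without BMP4-treated libraries 1, 2 and 3 of that label. The floxed-labelled count was 5 without untreated library 3 of that label, 29, 13 and 9 without its BMP4-treated libraries 1, 2 and 3, and 95 and 104 without untreated library 2 and BMP4-treated library 1 of the knockout-labelled set. A larger number of calls in 1 label is not a difference between the labels, and the test of the difference is the one given above.

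Id3, a canonical BMP target and inhibitor of helix-loop-helix factors, rose in both labels. In knockout-labelled libraries 1 to 3 it stood at 1.63, 1.10 and 0.943 CPM untreated and 13.1, 12.9 and 20.7 CPM with BMP4. In floxed-labelled libraries it stood at 0.814, 1.46 and 1.06 CPM untreated and 1.88, 10.6 and 9.05 CPM with BMP4. Treated and untreated libraries did not overlap in either label, and the smallest rise was in floxed-labelled library 1, one of those that stand apart. The rise was 12.5-fold in knockout-labelled cells (log2 3.65, SE 0.24, edgeR adjusted p = 4.18e-10) and 6.09-fold in floxed-labelled cells (log2 2.61, SE 0.26, edgeR adjusted p = 4.65e-06). The difference of the responses was 1.04 on the log2 scale (SE 0.43, 95% interval 0.15 to 1.92, edgeR adjusted p = 0.528) and did not pass. With the 3 libraries numbered 1 of that label left out, the floxed-labelled rise was 2.95 and the difference 0.71 (SE 0.41, edgeR adjusted p = 0.746).

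Dmpk, which encodes the serine/threonine kinase altered in myotonic dystrophy, followed the same order at a lower level. It stood at 1.15, 0.305 and 0.566 CPM untreated and 3.98, 3.09 and 8.71 CPM with BMP4 in knockout-labelled libraries 1 to 3. Floxed-labelled libraries held 0.343, 0.519 and 1.06 CPM untreated and 0.964, 2.99 and 2.32 CPM with BMP4. Knockout-labelled groups did not overlap, whereas treated floxed-labelled library 1 lay below untreated library 3. The log2 rise was 2.90 (SE 0.32, edgeR adjusted p = 7.89e-06) in knockout-labelled and 1.70 (SE 0.35, edgeR adjusted p = 0.0269) in floxed-labelled cells. The difference was 1.20 (SE 0.52, 95% interval 0.13 to 2.28, edgeR adjusted p = 0.563). The 15-library fit gave a floxed-labelled rise of 1.75 (edgeR adjusted p = 0.0708) and a difference of 1.16.

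Id2, another inhibitor of helix-loop-helix factors, was the protein-coding gene with the lowest p for the difference. Knockout-labelled libraries 1 to 3 held 18.6, 17.6 and 16.0 CPM untreated and 25.4, 25.8 and 28.3 CPM with BMP4. Floxed-labelled libraries held 22.2, 19.7 and 20.9 CPM untreated and 21.4, 23.0 and 21.9 CPM with BMP4. The knockout-labelled libraries thus began lower and ended higher than every floxed-labelled library of the same treatment. Id2 rose by log2 0.61 in knockout-labelled cells (SE 0.08, edgeR adjusted p = 9.47e-05), and the floxed-labelled change was 0.07 (SE 0.08, edgeR adjusted p = 0.754). The difference of 0.53 (SE 0.11, 95% interval 0.31 to 0.76) had an edgeR adjusted p of 0.0749 and just missed the threshold, while DESeq2 gave it an adjusted p of 0.0474. Over the 22 alternatives of this gene it was called in 4, and from the 15 libraries the difference was 0.47 (SE 0.12, edgeR adjusted p = 0.345).

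Smad6, an inhibitory Smad that acts on BMP signalling, stood at 1.27, 0.732 and 1.63 CPM untreated and 2.04, 2.47 and 3.45 CPM with BMP4 in knockout-labelled libraries. In floxed-labelled libraries it stood at 0.343, 1.18 and 1.28 CPM untreated and 0.505, 2.11 and 1.65 CPM with BMP4. Knockout-labelled groups did not overlap, and floxed-labelled groups did because of the low library 1. Smad6 rose by log2 1.12 in knockout-labelled cells (SE 0.28, edgeR adjusted p = 0.0232), against 0.61 (SE 0.32, edgeR adjusted p = 0.442) in floxed-labelled cells, with a difference of 0.51 (SE 0.43, 95% interval −0.38 to 1.399). Without the block the knockout-labelled rise of Smad6 was not called (edgeR adjusted p = 0.246). The plot of these 4 genes by library shows each pair of libraries.

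**Figure D1:**
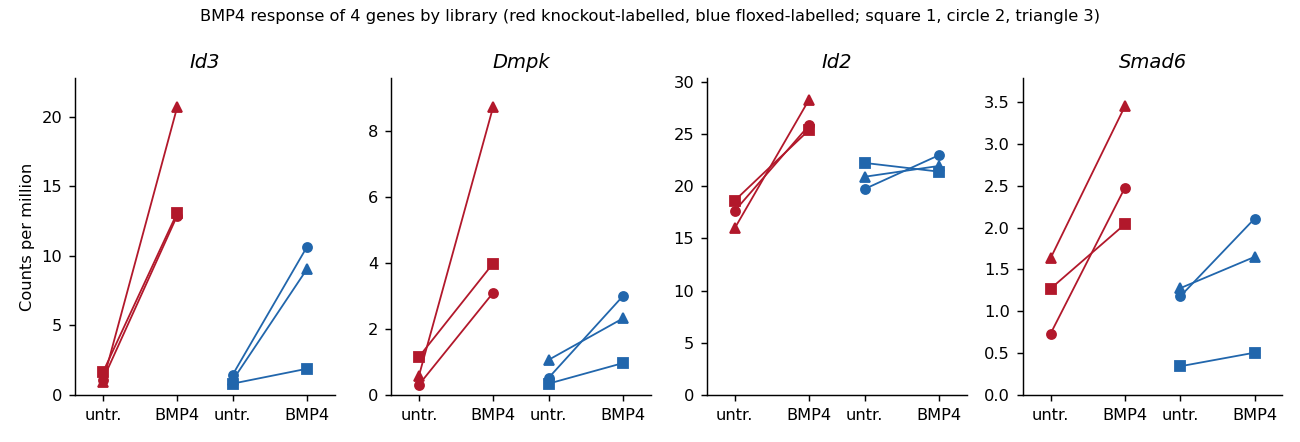
Level in CPM of Id3, Dmpk, Id2 and Smad6 in each untreated (untr.) and BMP4-treated library, with a line joining libraries of the same number and label (red knockout-labelled, blue floxed-labelled; square 1, circle 2, triangle 3). Id3 reached 12.9 to 20.7 CPM with BMP4 in knockout-labelled cells and 1.88 to 10.6 CPM in floxed-labelled cells, where library 1 is the lowest in Id3, Dmpk and Smad6.

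The promoters of these 4 genes are shown because all 4 were called as higher in the knockout-labelled response. None of them was called for the difference. Id3, Id2 and Smad6 belong to the list of BMP targets, and Dmpk does not. They are RefSeq sequences of build GRCm38.p6, from 250 bases before to 50 bases after the annotated start, written 5′ to 3′ on the strand of the gene. The windows are chr4:136143572-136143871 (plus strand) for Id3, chr12:25096043-25096342 (minus) for Id2, chr7:19083608-19083907 (plus) for Dmpk and chr9:64022010-64022309 (minus) for Smad6. Capitals mark 3 short motifs searched on both strands: GGCGCC and GGAGCC, GC-rich elements bound by Smad1 and Smad5, and CAGAC, the core of the Smad-binding element. No 2 matches overlapped.
Id3: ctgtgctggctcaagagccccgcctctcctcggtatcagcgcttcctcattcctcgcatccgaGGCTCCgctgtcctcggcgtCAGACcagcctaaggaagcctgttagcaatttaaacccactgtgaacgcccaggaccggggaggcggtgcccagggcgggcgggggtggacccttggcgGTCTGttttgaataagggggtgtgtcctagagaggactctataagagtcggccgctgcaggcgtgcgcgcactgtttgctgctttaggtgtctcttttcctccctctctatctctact
Id2: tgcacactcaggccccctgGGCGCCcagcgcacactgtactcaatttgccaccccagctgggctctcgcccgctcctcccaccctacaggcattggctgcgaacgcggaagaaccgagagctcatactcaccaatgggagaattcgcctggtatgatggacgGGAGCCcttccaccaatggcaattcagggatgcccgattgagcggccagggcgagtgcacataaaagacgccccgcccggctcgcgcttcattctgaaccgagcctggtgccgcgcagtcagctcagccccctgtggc
Dmpk: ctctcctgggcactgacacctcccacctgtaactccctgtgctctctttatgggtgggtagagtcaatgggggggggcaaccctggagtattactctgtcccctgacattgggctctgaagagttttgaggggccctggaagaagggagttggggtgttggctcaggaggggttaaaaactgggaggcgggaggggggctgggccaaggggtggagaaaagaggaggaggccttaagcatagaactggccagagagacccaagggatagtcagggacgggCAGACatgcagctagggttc
Smad6: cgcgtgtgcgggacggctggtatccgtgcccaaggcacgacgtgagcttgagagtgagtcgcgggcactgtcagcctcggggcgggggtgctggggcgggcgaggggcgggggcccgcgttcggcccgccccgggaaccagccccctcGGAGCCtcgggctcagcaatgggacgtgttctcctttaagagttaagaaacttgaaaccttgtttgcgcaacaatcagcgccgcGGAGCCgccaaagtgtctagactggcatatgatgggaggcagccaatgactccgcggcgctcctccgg
Id3 held 1 GGAGCC and 2 CAGAC matches, Id2 held 1 GGCGCC and 1 GGAGCC, Dmpk held 1 CAGAC after its start, and Smad6 held 2 GGAGCC. Of all 32851 promoters of this length in the table, 11.9% held GGCGCC, 30.8% GGAGCC and 49.6% CAGAC, so a match is common. Promoters were found for 26 of the 33 genes called in both responses. Of their 36 promoters, 16.7%, 50.0% and 61.1% held the motifs in the same order, against 19.8%, 39.9% and 47.5% of the 12909 promoters of the genes tested. A match describes the letters of the window only.

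The rest of the BMP target list held no gene called in either response at this depth. Of its 28 genes 13 passed the filter on low counts, 0 were called for the difference, and their median difference was 0.12, beside 0.0039 over all genes tested. The differences of the 13 ran from −3.25 to 1.45, so the lack of calls does not show that the other members stayed the same. In knockout-labelled cells 3 members rose (Id3, Id2 and Smad6) and in floxed-labelled cells 1 rose (Id3), where 3.21% and 0.361% of all genes were called in either direction. None fell in either label. Id1, the relative of Id3 that many cells induce with BMP4, was near the floor. It held 0.181, 0.183 and 0.314 CPM untreated and 0.284, 0.361 and 1.03 CPM with BMP4 in knockout-labelled libraries, and at most 0.388 CPM in any floxed-labelled library, with an interval of the difference from −1.45 to 2.35. Smad7, an inhibitory Smad, had a difference of 0.12 (SE 0.19), and Bambi, a decoy receptor, one of −0.02 (SE 0.17). Id4, Atoh8 and Smad9 did not pass the filter, with 3, 4 and 5 counts over the 12 libraries.

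The machinery of the pathway showed no called change. Of 30 genes for BMP receptors, Smads and modulators, 24 passed the filter, 0 were called in either response or for the difference, and the median difference was −0.04. Smad5, the closest relative of Smad1, held 32.8, 28.9 and 32.2 CPM untreated and 32.5, 29.9 and 30.9 CPM with BMP4 in knockout-labelled libraries. In floxed-labelled libraries it held 32.3, 31.3 and 30.6 CPM untreated and 28.8, 33.6 and 33.4 CPM with BMP4. All 4 groups overlapped, and the difference was −0.03 (SE 0.10, 95% interval −0.24 to 0.18). Smad4, the common partner, differed by −0.07 (SE 0.07) and Smad1 itself by −0.01 (SE 0.10). The direction of the Smad1 value turned under several alternatives, where it reached at most 0.06.

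A set of genes changed with BMP4 in both labels. It held 33 genes, 10 higher and 23 lower in both, and 0 changed in opposite directions. These are 6.99% of the knockout-labelled calls and 62.3% of the floxed-labelled calls. In the 15 libraries 9 genes were called in both (2.04% and 50.0%), of which 8 belong to the 33. Leaving out 1 library gave 4 to 33 such genes, the fewest without untreated floxed-labelled library 3. DESeq2 called 60 in both, the 12 libraries alone gave 14, and the fit without the low-count filter gave 100, 2 of them in opposite directions. One gene was opposite without untreated knockout-labelled library 1. The sign was shared for 364 of the 472 knockout-labelled calls (77.1%) and for 48 of the 53 floxed-labelled calls (90.6%). Over all genes tested 58.1% had the same sign. The 2 responses share no library.

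Of the 23 genes lower in both labels, the one with the largest knockout-labelled fall was Tns1, tensin 1, which links integrins to the actin cytoskeleton. It held 90.4, 92.5 and 84.6 CPM untreated and 55.8, 58.1 and 63.8 CPM with BMP4 in knockout-labelled libraries, and 92.7, 82.2 and 100.6 CPM untreated and 76.1, 63.7 and 73.8 CPM with BMP4 in floxed-labelled libraries. Treated libraries lay below untreated ones in both labels. The log2 fall was −0.59 (SE 0.06, edgeR adjusted p = 2.33e-06) and −0.36 (SE 0.06, edgeR adjusted p = 0.00574), with a difference of −0.23 (SE 0.08, edgeR adjusted p = 0.449), and from the 15 libraries the difference was −0.18.

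Gas7, a growth arrest gene whose product binds actin, held 534, 548 and 536 CPM untreated and 421, 394 and 349 CPM with BMP4 in knockout-labelled libraries. Floxed-labelled libraries held 587, 633 and 501 CPM untreated and 517, 463 and 456 CPM with BMP4. Only the floxed-labelled groups overlapped, since untreated library 3 lay below treated library 1, although each treated library lay below the untreated one of its number. Its log2 fall was −0.48 and −0.26 (edgeR adjusted p = 3.92e-06 and 0.0149). Slc12a7, a potassium chloride cotransporter, fell by 0.40 and 0.26, and Inpp4a, a phosphoinositide phosphatase, by 0.37 and 0.24.

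Among the 33, other falls were nearly equal in both labels. Bcl3, a nuclear member of the IκB family, fell by 0.37 in knockout-labelled and 0.42 in floxed-labelled cells. Vav3, a guanine nucleotide exchange factor, fell by 0.27 and 0.28. Pbxip1, a partner of PBX transcription factors, fell by 0.23 and 0.27. Cell surface receptors were among the falls: Lrp1, an endocytic receptor, by 0.29 and 0.22, C5ar1, the receptor for complement C5a, by 0.26 and 0.25, and Il4ra, the interleukin 4 receptor subunit, by 0.16 and 0.22. These 3 receptors, like Ccnl2 and Clk1 among the rises, were named after their values were seen.

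Ccnl1 was among the shared rises beside Id3 and Dmpk. Ccnl1, a cyclin found with splicing factors, held 149.8, 148.6 and 142.2 CPM untreated and 184.2, 173.0 and 174.4 CPM with BMP4 in knockout-labelled libraries. In floxed-labelled libraries it held 155.6, 155.9 and 148.8 CPM untreated and 185.0, 191.2 and 171.5 CPM with BMP4. Treated libraries lay above untreated ones in both labels, with log2 rises of 0.27 and 0.25 (edgeR adjusted p = 0.00127 and 0.0135) and a difference of 0.02 (SE 0.06, 95% interval −0.11 to 0.15). Its relative Ccnl2 rose by 0.24 and 0.20, and Clk1, a kinase of splicing factors, by 0.23 and 0.22. Fabp5, a fatty acid binding protein, rose by 0.32 and 0.28, although its libraries overlapped between treatments and only the paired libraries separate: without the block its edgeR adjusted p in knockout-labelled cells was 0.763. From the 15 libraries the floxed-labelled changes of Gas7, Slc12a7, Inpp4a, Bcl3, Vav3, Pbxip1, Ccnl1 and Fabp5 were no longer called (edgeR adjusted p from 0.0506 to 0.0708), although their sizes held, as in Gas7 (−0.29), Slc12a7 (−0.29), Bcl3 (−0.43) and Ccnl1 (0.25), and that of Tns1 still was (edgeR adjusted p = 0.0175).

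**Figure D2:**
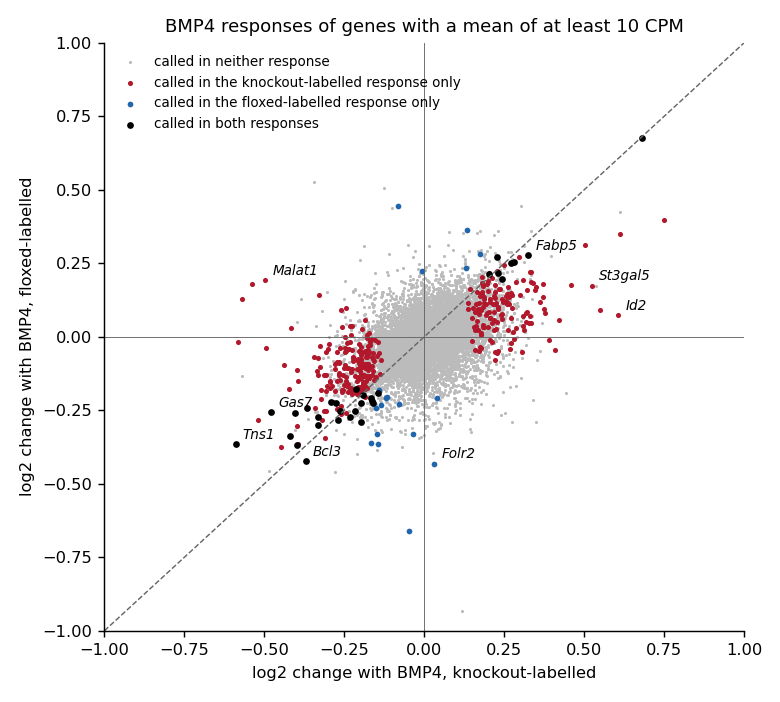
BMP4 response of each of 8578 genes whose mean level was at least 10 CPM, as the blocked log2 change in knockout-labelled cells (horizontal axis) and in floxed-labelled cells (vertical axis), with the dashed line marking equal responses. Genes called in both responses (31 here, black) were chosen on both axes and have the same sign in both. Their distance from the line varies, as in Tns1 (−0.59 and −0.36) and Ccnl1 (0.27 and 0.25). Id3 and Dmpk, also called in both, lie under 10 CPM and are not drawn. Genes called in the knockout-labelled response only (327, red) spread around a smaller floxed-labelled change, the axis that chose them being the horizontal one.

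Agreement across genes depended on expression level. Over all 14684 genes the 2 sets of log2 changes had a Pearson correlation of −0.0345 (Spearman 0.126). It was −0.0685 in the 2462 genes under 1 CPM, 0.0376 in the 3644 genes from 1 to 10 CPM, 0.369 in the 6330 genes from 10 to 100 CPM and 0.588 in the 2248 genes at 100 CPM and over. Over the 8578 genes of at least 10 CPM it was 0.407, with the same sign in 63.6% of genes. These correlations are across genes, which are not independent replicates, and they describe these libraries. Single pairs of libraries put the value in scale. Among genes of at least 10 CPM, the responses of 2 pairs within the knockout label correlated with r of 0.121 to 0.323 and within the floxed label with r of 0.0397 to 0.31. Pairs from different labels correlated with r of 0.0463 to 0.358, and the ranges overlap at this level. Under 10 CPM the knockout-labelled pairs stood apart. From 1 to 10 CPM they had r of 0.21 to 0.247, against −0.0224 to 0.0858 for pairs from different labels. Under 1 CPM these ranges were 0.148 to 0.223 and −0.102 to 0.0292, and over all genes 0.198 to 0.242 and −0.0718 to 0.0676. Floxed-labelled pairs overlapped the pairs from different labels there (0.0119 to 0.114, −0.0377 to 0.0347 and 0.0306 to 0.0418). The correlation over genes of at least 10 CPM was 0.412 from the 15 libraries, and with 1 library left out it ran from 0.285 to 0.457.

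The level also set what could be seen. The 95% interval of the difference lay inside plus or minus 1 (log2), a change of 2-fold, for 99.9% of genes from 10 to 100 CPM and 99.9% of those at 100 CPM and over. It did so for 65.8% of genes from 1 to 10 CPM and for 0.244% of those under 1 CPM. Inside plus or minus 0.5 lay 92.7%, 99.6%, 12.7% and 0% of the same bins in that order. For the 8425 protein-coding genes of at least 10 CPM, 94.9% had an interval inside plus or minus 0.5. These are intervals of single genes, and an interval that excludes 0 is not a call after adjustment: Id2, Mcm10 and Kcnq1ot1, all over 10 CPM, had estimates of 0.53, 0.56 and −0.72 and were not called.

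**Figure D3:**
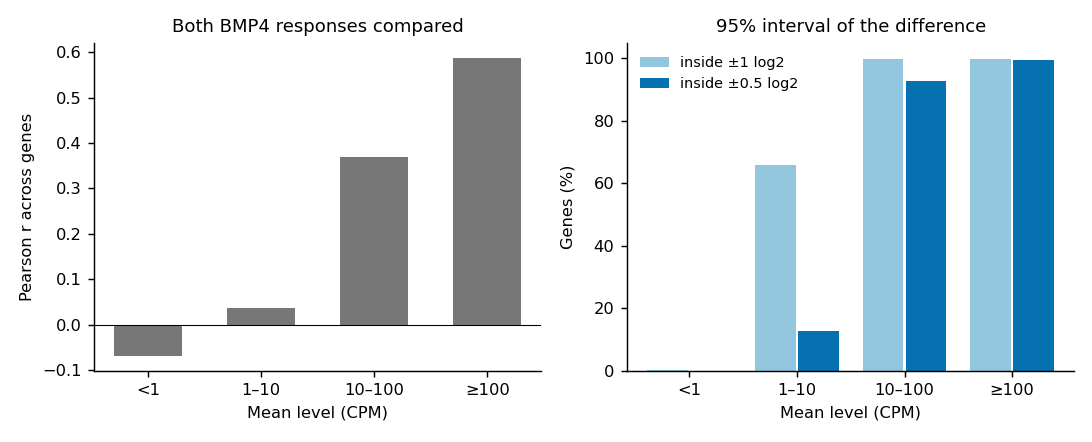
Left: Pearson correlation across genes between the knockout-labelled and floxed-labelled BMP4 responses, by mean level in CPM. Right: share of genes in percent whose 95% interval of the difference lies inside plus or minus 1 or 0.5 (log2). The correlation goes from −0.0685 under 1 CPM to 0.588 at 100 CPM and over, and the interval is inside plus or minus 0.5 for 92.7% of genes from 10 to 100 CPM.

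Of the genes called in knockout-labelled cells, 439 were not called in floxed-labelled cells. They differed by class: 299 of the 338 protein-coding genes among them (88.5%) had the same sign in both labels, against 32 of the 101 others (31.7%). Over all genes tested the shares were 60.8% of protein-coding genes and 46.0% of the others. St3gal5, the synthase of ganglioside GM3, is an example of the first class. It held 59.0, 55.2 and 59.6 CPM untreated and 80.2, 71.2 and 100.2 CPM with BMP4 in knockout-labelled libraries, and 42.0, 44.6 and 47.7 CPM untreated and 40.4, 59.7 and 53.3 CPM with BMP4 in floxed-labelled libraries. Knockout-labelled groups did not overlap and floxed-labelled ones did. It rose by 0.52 (SE 0.08, edgeR adjusted p = 0.000255), against a floxed-labelled change of 0.17 (SE 0.08, edgeR adjusted p = 0.357), and the difference of 0.35 (SE 0.11) had an edgeR adjusted p of 0.325. Without the block the knockout-labelled rise of St3gal5 was not called (edgeR adjusted p = 0.108). Abca1, the cholesterol exporter, fell by 0.31 in knockout-labelled cells, with a floxed-labelled change of −0.05 and a difference of −0.25 (SE 0.08, edgeR adjusted p = 0.299). Without BMP4-treated knockout-labelled library 1 the difference of Abca1 was called (−0.35, edgeR adjusted p = 0.0234). Notch2, a receptor of the Notch pathway, fell by 0.31, with a floxed-labelled change of −0.13 and a difference of −0.18 (SE 0.06). Other genes called in the knockout-labelled response, named after their values were seen, were Mmp12, macrophage elastase, which rose by 0.46 (floxed-labelled 0.18), and Smad3, the mediator of TGF-β signals, and Cx3cr1, the fractalkine receptor, which fell by 0.34 and 0.45 (floxed-labelled −0.12 and −0.38).

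The reverse set, called in floxed-labelled cells alone, held 20 genes, and none was called for the difference. Folr2, folate receptor beta, held 38.3, 37.3 and 49.3 CPM untreated and 32.0, 30.2 and 29.96 CPM with BMP4 in floxed-labelled libraries. In knockout-labelled libraries it held 41.2, 41.7 and 37.5 CPM untreated and 42.5, 36.2 and 44.9 CPM with BMP4. Only the floxed-labelled groups were separate. It fell by 0.43 there (SE 0.08, edgeR adjusted p = 0.0149), the knockout-labelled change was +0.03, and the difference was 0.46 (SE 0.12, 95% interval 0.22 to 0.71, edgeR adjusted p = 0.19). The difference passed without untreated knockout-labelled library 2 (0.60, edgeR adjusted p = 0.0284), and from the 15 libraries it was 0.56 (edgeR adjusted p = 0.291). Ly6c2, a surface protein of classical monocytes, held 10.2, 11.04 and 13.8 CPM untreated and 7.07, 6.49 and 8.02 CPM with BMP4 in floxed-labelled libraries, which were separate. In knockout-labelled libraries it held 6.95, 6.89 and 8.73 CPM untreated and 6.02, 4.89 and 12.1 CPM with BMP4, which were not. Its fall of 0.70 (edgeR adjusted p = 0.0146) faced a knockout-labelled change of −0.02, with a difference of 0.68 (SE 0.19, edgeR adjusted p = 0.253). Sema4a, a semaphorin, fell by 0.36 in floxed-labelled cells, with −0.17 in knockout-labelled cells. Folr2 was, from the 15 libraries, still called in the floxed-labelled response (edgeR adjusted p = 0.0375), whereas Ly6c2 and Sema4a were not (edgeR adjusted p = 0.0604 and 0.0839), with changes of −0.78 and −0.31.

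The 7 genes called for the difference fell in knockout-labelled cells, and none was called in floxed-labelled cells. Malat1 (chromosome 19, 5795690 to 5802672), a long non-coding RNA retained in nuclear speckles, held 2689, 2277 and 2155 CPM untreated and 1649, 1552 and 1811 CPM with BMP4 in knockout-labelled libraries. In floxed-labelled libraries it held 1349, 1593 and 1583 CPM untreated and 1751, 1704 and 1696 CPM with BMP4. Treated and untreated libraries were separate in both labels, in opposite directions, and the 3 untreated knockout-labelled libraries were the highest of the 12. The knockout-labelled fall was −0.50 (SE 0.07, edgeR adjusted p = 9.47e-05), the floxed-labelled change was 0.19 (SE 0.07, edgeR adjusted p = 0.207) and the difference −0.69 (SE 0.09, 95% interval −0.88 to −0.50, edgeR adjusted p = 0.000986).

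A930037H05Rik (chromosome 11, 119448788 to 119491298, minus strand), a processed transcript that overlaps exons of Rnf213 on the opposite strand, held 10.8, 7.08 and 8.17 CPM untreated and 4.65, 3.86 and 4.38 CPM with BMP4 in knockout-labelled libraries. Floxed-labelled libraries held 4.20, 5.80 and 4.36 CPM untreated and 7.76, 7.32 and 5.08 CPM with BMP4. The knockout-labelled groups were separate, with the untreated libraries high, and the floxed-labelled groups overlapped. The difference was −1.49 (SE 0.24, edgeR adjusted p = 0.0109). The sources do not say whether counting used strand, so reads of Rnf213 and of this transcript cannot be told apart where they overlap. Rnf213 itself stood at 1158 CPM on average, with a difference of −0.20 (SE 0.09, edgeR adjusted p = 0.563).

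The other 5 genes belong to the annotation class TEC, transcripts that still await experimental support, and each has 1 exon. Gm37084 (chromosome 1, 131086252 to 131092149, minus strand) lies inside an intron of Mapkapk2 on the same strand. It held 12.0, 10.4 and 12.0 CPM untreated and 4.93, 4.89 and 6.20 CPM with BMP4 in knockout-labelled libraries, and 5.18, 5.28 and 4.41 CPM untreated and 8.13, 4.71 and 4.50 CPM with BMP4 in floxed-labelled libraries. The untreated knockout-labelled libraries stood above the other 9, whose values mixed. Its difference was −1.32 (SE 0.23, edgeR adjusted p = 0.0196), and that of Mapkapk2, a stress-activated kinase, was −0.11 (SE 0.07, edgeR adjusted p = 0.721). Inside an intron on the same strand, reads of a TEC gene cannot be told apart from reads of unspliced host RNA. Whether such a gene is a transcript of its own was not tested. Gm37033 (chromosome 1, 180357649 to 180364998) lies inside an intron of Itpkb on the same strand and had a difference of −2.18 (SE 0.42, edgeR adjusted p = 0.0389). Itpkb, an inositol trisphosphate kinase, had one of −0.08 (SE 0.08). Gm47603 (chromosome 13, 63253024 to 63255564) lies inside an intron of 2010111I01Rik on the opposite strand, and its difference was −3.04 (SE 0.51, edgeR adjusted p = 0.0139). Gm37352 (chromosome 8, 84200869 to 84203049) and Gm37472 (chromosome 14, 61677443 to 61681494) lie outside protein-coding genes, with differences of −1.55 and −2.34 (edgeR adjusted p = 0.0216 and 0.0256).

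The same direction held across the TEC class. Its 578 genes had a median difference of −0.61, beside 0.0039 over all genes. At an unadjusted p under 0.05, 147 were lower and 2 higher, beside 642 and 567 of all 14684 genes. The median change was −0.46 in knockout-labelled and 0.17 in floxed-labelled cells. Of the 577 TEC genes that could be placed, 372 (64.5%) lay inside an intron of a protein-coding gene, with a median difference of −0.78. For 361 of these the host gene was measured, and the host differences had a median of −0.04. A host was counted once for each TEC gene inside it. Of the 372, 328 lay on the strand of the host (median difference −0.79) and 44 on the opposite strand (median −0.51). The 115 outside protein-coding genes had a median of −0.32. Antisense genes (533, median −0.23) and sense intronic genes (63, median −0.31) went the same way, while the 422 lincRNA genes had a median of −0.07. The 454 processed pseudogenes, with a median level of 0.74 CPM, went the other way (median 0.12).

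This shift was also a difference between libraries before treatment. TEC genes took 0.139%, 0.116% and 0.121% of the counts in untreated and 0.0959%, 0.100% and 0.102% in BMP4-treated knockout-labelled libraries 1 to 3. In floxed-labelled libraries they took 0.0953%, 0.101% and 0.0942% untreated and 0.105%, 0.103% and 0.106% with BMP4. The knockout-labelled libraries given TGF-β1 held 0.116%, 0.118% and 0.105%. The untreated knockout-labelled libraries were the highest of the 12, and the other 9 lay between 0.0942% and 0.106%. With the TEC share as a covariate in the fit, 0 genes were called for the difference (831 at an unadjusted p under 0.05), and 3 and 5 genes were called in the knockout-labelled and floxed-labelled responses. The covariate does not overlap between treated and untreated libraries within either label, so it also takes up much of the treatment effect itself. From the 15 libraries 124 TEC genes were lower and 3 higher at an unadjusted p under 0.05, and Malat1 had a difference of −0.59 (edgeR adjusted p = 0.0666). Not every nuclear RNA followed: Neat1, the scaffold of paraspeckles, held 900.0, 939.2 and 663.2 CPM untreated and 1008, 1024 and 1000.5 CPM with BMP4 in knockout-labelled libraries, 849.9, 1082 and 1033 CPM untreated and 1091, 1132 and 1140 CPM with BMP4 in floxed-labelled libraries, and had a difference of 0.10 (SE 0.10, 95% interval −0.10 to 0.31; −0.04 without untreated knockout-labelled library 3). Neat1 was named after its values were seen. The part that the makeup of the libraries has in these calls was not tested.

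**Figure D4:**
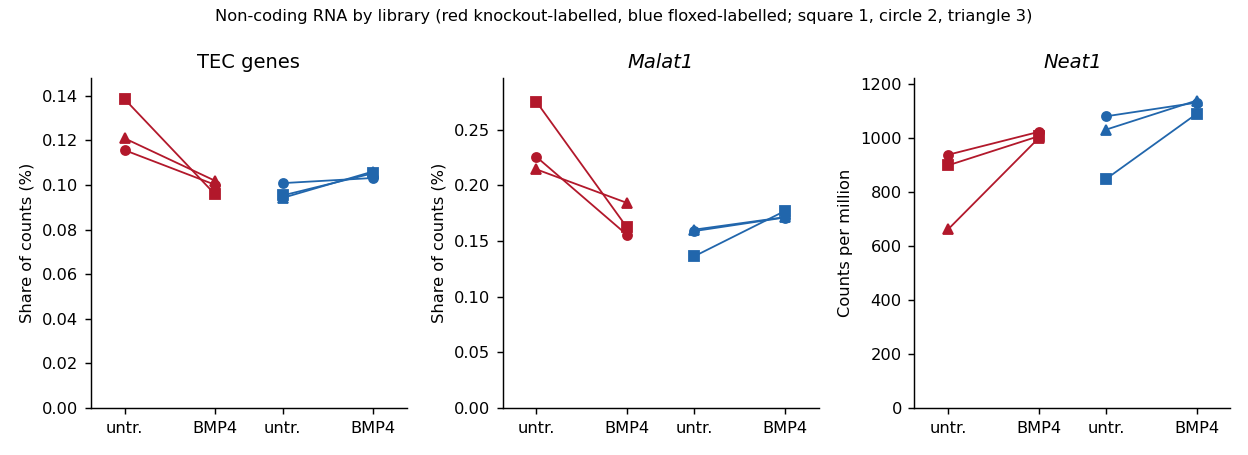
Share of counts in TEC genes and in Malat1 (percent) and level of Neat1 (CPM) in each untreated (untr.) and BMP4-treated library, with lines joining libraries of the same number and label (red knockout-labelled, blue floxed-labelled; square 1, circle 2, triangle 3). The 3 untreated knockout-labelled libraries hold 0.116% to 0.139% TEC counts, above the other 9 libraries, and the same 3 are the highest in Malat1 but not in Neat1.

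Named genes that came next in the test of the difference did not pass, and their values are given without a call. On the lower side were Muc6, a mucin, with a difference of −1.51 (SE 0.32), Zbtb20, a zinc finger repressor, with −0.34 (SE 0.07), the non-coding RNA genes Lncpint (−1.33) and Kcnq1ot1 (−0.72), Cd27 (−1.39), a receptor of the TNF receptor family, Depp1 (−1.20), Tctn1 (−0.50), Arhgef12 (−0.35), a guanine nucleotide exchange factor, and Fam196a (−3.52). Their edgeR adjusted p ran from 0.0816 to 0.19. Zbtb20 held 119.1, 108.2 and 122.8 CPM untreated and 81.9, 88.3 and 88.3 CPM with BMP4 in knockout-labelled libraries, and 84.8, 80.3 and 81.6 CPM untreated and 75.8, 76.7 and 78.2 CPM with BMP4 in floxed-labelled libraries. The untreated knockout-labelled libraries were again the 3 highest, and both labels were separate between treatments. On the higher side, after Id2, were Zmynd11 (0.28), a reader of histone marks, Mybl2 (0.91), a cell cycle transcription factor, Folr2, Ino80c (0.35) and Sap30 (0.27), members of chromatin complexes, the ribosomal protein gene Rpl36a (0.26), Apobr (0.25), Gngt2 (0.31) and the glycolytic enzyme gene Tpi1 (0.20). Their edgeR adjusted p ran from 0.148 to 0.226. Zbtb20, Lncpint, Kcnq1ot1 and Folr2 passed without untreated knockout-labelled library 2, Muc6 without untreated floxed-labelled library 2 (edgeR adjusted p = 0.0317), and Mybl2 without BMP4-treated knockout-labelled library 1 (edgeR adjusted p = 0.0486). In all, the 3 knockout-labelled pairs lay above the 3 floxed-labelled pairs for 852 genes (5.8%) and below them for 941 (6.41%).

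By function, the lists with the most uniform sign were those of cell division. Of 30 DNA replication genes, all measured, 29 had a positive difference, with a median of 0.21, beside 7503 of 14684 genes (51.1%) and a median of 0.0039 over all genes tested. None was called for the difference or in either response. At an unadjusted p under 0.05, 9 had the higher and 0 the lower response in knockout-labelled cells, beside 567 and 642 of all 14684 genes. Mcm10, a replication initiation factor, had the lowest p of the list. It held 12.0, 8.42 and 11.2 CPM untreated and 11.3, 12.0 and 15.0 CPM with BMP4 in knockout-labelled libraries, and 12.6, 9.20 and 13.9 CPM untreated and 9.82, 9.26 and 10.0 CPM with BMP4 in floxed-labelled libraries. Treated and untreated libraries overlapped within each label, while the 3 treated knockout-labelled libraries lay above the 3 treated floxed-labelled ones, and the difference was 0.56 (SE 0.16, edgeR adjusted p = 0.255). Summed over the list, the level went from 790.0, 696.3 and 807.1 to 704.6, 787.7 and 1011 CPM in knockout-labelled libraries 1 to 3, and from 809.1, 650.4 and 866.1 to 744.5, 680.7 and 746.1 CPM in floxed-labelled ones. Each label thus held both a rise and a fall.

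Mitosis genes went the same way: 29 of 30 had a positive difference, with a median of 0.18, and 0 were called. At an unadjusted p under 0.05, 9 were higher and 0 lower, beside 567 and 642 of all 14684 genes. Ccnb1, the mitotic cyclin B1, had a difference of 0.35 (SE 0.12, edgeR adjusted p = 0.398). Their summed level went from 1029, 818.1 and 1040 to 825.1, 990.1 and 1155 CPM in knockout-labelled libraries and from 1107, 795.5 and 1035 to 890.1, 809.0 and 929.1 CPM in floxed-labelled libraries. In both labels the pair numbered 1 fell and the pair numbered 2 rose. From the 15 libraries 27 replication and 25 mitosis genes were positive, with 4 and 0 higher at an unadjusted p under 0.05. With 1 library left out, 23 to 30 and 25 to 30 genes were positive, and the counts at an unadjusted p under 0.05 ran from 2 (without BMP4-treated knockout-labelled library 3) to 19 (without BMP4-treated knockout-labelled library 1) and from 0 (without BMP4-treated floxed-labelled library 1) to 24 (without BMP4-treated knockout-labelled library 1). With 1 library left out the medians ran from 0.09 (without BMP4-treated knockout-labelled library 3) to 0.43 for replication and from 0.10 (without BMP4-treated knockout-labelled library 2) to 0.35 for mitosis, both highest without BMP4-treated knockout-labelled library 1. In the 15 libraries they were 0.22 and 0.10. Members of a list share libraries and rise and fall together, so their count of signs is a description.

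The other 17 functional lists had medians from −0.11 (TGF-β and Smad3 targets) to 0.12 (BMP targets), and none held a gene called for the difference. The 32 interferon-stimulated genes, 15 of them positive, had a median of −0.01, and none was called in either response. Nor was any of the 22 measured inflammatory cytokine and NF-κB genes (median 0.02) or the 28 genes of sterol and fatty acid synthesis (median 0.01). In lipid handling, 3 members rose in knockout-labelled cells (Fabp5, Nr1h2 and Trem2) and 2 fell (Abca1 and Lrp1), and 1 rose (Fabp5) and 1 fell (Lrp1) in floxed-labelled cells, of 23 measured, where 3.21% and 0.361% of all genes were called. Of 23 measured phagocytosis receptors, 2 rose (Clec7a and Marco) and 1 fell (Stab1) in knockout-labelled cells. In floxed-labelled cells 0 were called, beside the same shares of all genes. Marco, a scavenger receptor, changed by log2 0.22 in knockout-labelled cells (SE 0.06, edgeR adjusted p = 0.038) and −0.08 in floxed-labelled cells (SE 0.06, edgeR adjusted p = 0.623). It varied between libraries more than with treatment. It held 180.2, 78.6 and 114.2 CPM untreated and 250.7, 78.8 and 125.3 CPM with BMP4 in knockout-labelled libraries, and 82.1, 182.0 and 100.7 CPM untreated and 79.5, 172.3 and 93.2 CPM with BMP4 in floxed-labelled libraries. Its difference of 0.30 (SE 0.08, edgeR adjusted p = 0.243) passed without untreated knockout-labelled library 2 (0.38, edgeR adjusted p = 0.0421) and without the low-count filter (edgeR adjusted p = 0.00471), and was −0.003 with the TEC share as a covariate.

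**Figure D5:**
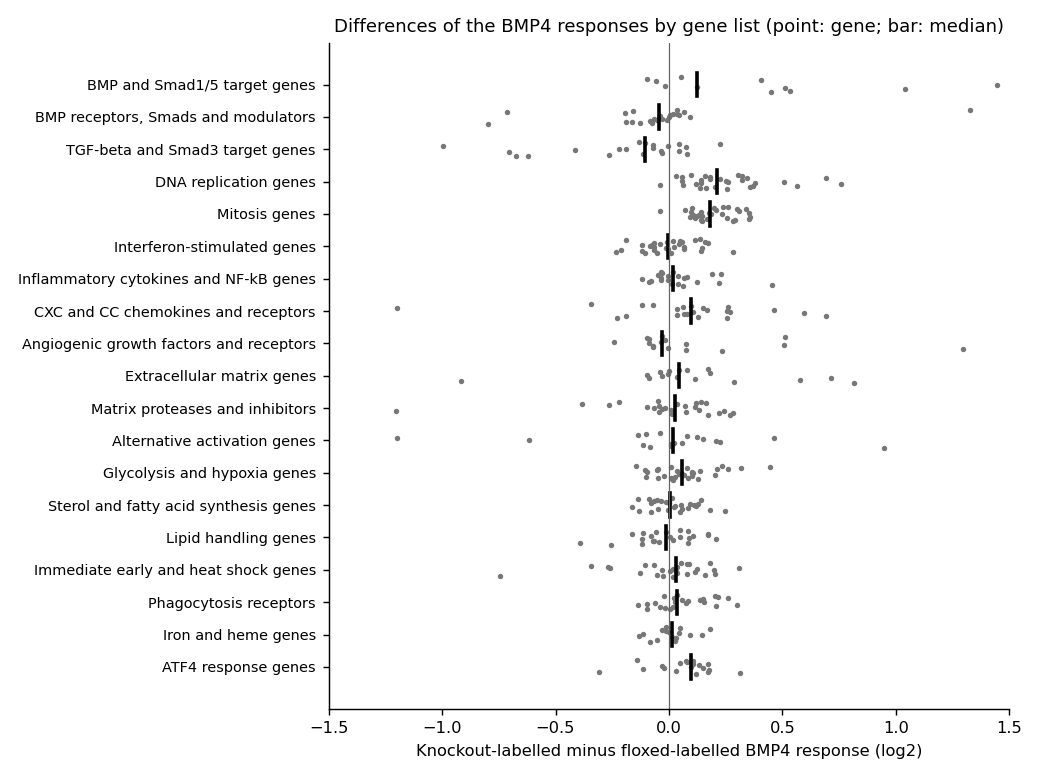
Difference of the BMP4 responses (knockout-labelled minus floxed-labelled, log2) for each measured gene of 19 functional lists, with a bar at the median of each list and 3 genes outside the axis not drawn. DNA replication and mitosis genes lie to the right of 0 in 29 of 30 cases each, and the other lists straddle 0.

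The cells carried the markers of macrophages: all 14 listed had a mean of at least 1 CPM, with sums of 27900 to 31700 CPM in knockout-labelled and 12700 to 23900 CPM in floxed-labelled libraries, Lyz2 included. Within each label the sums of monocyte and neutrophil markers overlapped between treatments. Those of osteoclast markers did not in either label, and those of dendritic cell markers did not in knockout-labelled cells. These sums rest mostly on few genes: Tnfrsf11a and Nfatc1 (osteoclast), Irf8 and Cd74 (dendritic) and Csf3r (neutrophil). Of 7 measured osteoclast markers, 1 was called lower in knockout-labelled cells (Nfatc1, −0.22, edgeR adjusted p = 0.0278). In floxed-labelled cells 1 was called higher (Atp6v0d2, 0.36, edgeR adjusted p = 0.0207). Over all genes 3.21% and 0.361% were called in either direction. Of 14 measured dendritic cell markers 0 were called. Each sum covers all listed genes, and brackets give how many of them had a mean of at least 1 CPM. Monocyte markers (9 of 9) summed to 587 to 709 CPM in untreated and 537 to 775 CPM in BMP4-treated knockout-labelled libraries, and to 843 to 1070 CPM and 791 to 1080 CPM in floxed-labelled libraries. Neutrophil markers (11 of 14) summed to 355 to 387, 363 to 423, 420 to 438 and 405 to 482 CPM in the same order. Dendritic cell markers (9 of 15) summed to 486 to 507, 448 to 479, 477 to 614 and 518 to 548 CPM, and osteoclast markers (7 of 10, Calcr at 0) to 287 to 309, 254 to 277, 295 to 306 and 276 to 291 CPM. Fibroblast and stromal markers (3 of 10) summed to 4.70 to 7.13, 6.40 to 7.01, 8.08 to 9.29 and 6.78 to 20.6 CPM. The highest value belonged to a treated floxed-labelled library, number 1, with 4.27 CPM of Col1a2 and 4.73 CPM of Col3a1. In bulk libraries fewer cells of a type and less RNA per cell cannot be told apart, and the part of these cells in the differences was not tested.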

How the data were processed

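RNA of mouse bone marrow macrophages was sequenced in 18 libraries, 3 in each of 6 groups. The authors deposited raw counts per gene and FPKM values per gene, with a table of gene annotation and gene length, per the file headers. TopHat2 2.0.9, HTSeq 0.6.1 and Cufflinks 2.1.1 with builds mm10 and GRCm38.p6 are named in the submitters' processing notes, which give no roles, and whether counting used strand is not given in the sources used here. Reads of antisense and overlapping genes therefore cannot be told apart. The annotation table also holds 78 per-sample columns that were not used.

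Counts were fitted in edgeR 4.0.16 (R 4.3.3) with TMM scaling, genes filtered by filterByExpr over the 6 groups (14684 of 54532 kept) and the quasi-likelihood test, with p-values adjusted by Benjamini-Hochberg over all genes tested. The design had 6 blocks, 1 for each library number within each genotype label, and 4 treatment effects, leaving 8 residual degrees of freedom. The numbers come from the library titles. They pair libraries within a label: same-numbered libraries of 1 label correlated in their deviations from the group means with r from 0.345 to 0.736 over 18 pairs. Intervals are at the 95% level. The difference is the knockout-labelled minus the floxed-labelled log2 change. Alternatives were no block, a block shared by both labels, RLE scaling, other filters, DESeq2 1.42.0, limma 3.58.1 on log2(FPKM + 1), the 12 libraries alone, the 15 libraries, leaving out each library and, chosen after seeing the data, the TEC share as a covariate. The scripts were tested on simulated data.

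Named genes were the 10 of lowest p for the difference in each direction, the 8 of lowest p in each direction of each response, BMP pathway genes, and per list the member of lowest p in each direction. The first 2 of these groups left out predicted genes and genes under 1 CPM in all 4 groups. The 7 called genes were described in full because all calls are reported. The comparison, its members and the gene lists were proposed with earlier results of these data known. Promoters are RefSeq sequences of GRCm38.p6, matched by symbol. Placement of TEC genes used GENCODE release 21 for mouse, with which 53499 of 54409 gene identifiers had identical positions. Floors cover counting error only. One further marker list is not reported here.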

Additional observations from a re-analysis of the deposited data

Results flagged for a closer look

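The test of the difference between the 2 labels itself, edgeR's blocked quasi-likelihood test over 14684 genes, singled out 7 genes. Each had the lower BMP4 response in knockout-labelled cells, with a log2 difference of −0.69 for Malat1, −1.49 for A930037H05Rik, −3.04 for Gm47603, −1.32 for Gm37084, −1.55 for Gm37352, −2.34 for Gm37472 and −2.18 for Gm37033. All are non-coding or unclassified transcripts. From the 15 libraries without the floxed-labelled libraries numbered 1, none passed (edgeR adjusted p from 0.0666 to 0.256), although each kept its direction.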

How the results depend on the processing

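The 7 genes called for the difference became 0 without the replicate block, 0 with a block shared by both labels, 0 with limma on FPKM, 0 from the 15 libraries, 0 with the TEC share as a covariate, 11 from the 12 libraries alone and 94 without the low-count filter. The 472 knockout-labelled calls became 84 without the replicate block, 86 with the shared block, 218 with limma, 309 from the 12 libraries and 3 with the covariate. The 53 floxed-labelled calls became 0 without the replicate block, 0 with the shared block, 0 with limma, 23 from the 12 libraries, 18 from the 15 libraries, 110 with DESeq2, 250 without the filter and 5 with the covariate. Leaving out 1 library gave 1 to 34, 91 to 502 and 5 to 104 calls. The correlation of the responses across all genes, −0.0345, was 0.407 among genes of at least 10 CPM and −0.0558 among them with the covariate. The cause of these shifts was not tested. In these libraries the covariate did not overlap between treated and untreated libraries within either label, so it takes up much of the treatment effect. For the 7 called genes, 35 of 70 values from other alternatives and 52 of 84 with 1 library left out stayed called, and none changed direction. Over the 56 genes whose differences were recomputed, 490 of 557 and 596 of 672 values kept their direction and their side of the threshold. With the covariate the difference turned to −0.003176 for Marco, −0.1136 for Sema4a, −0.01953 for Fabp5, −0.2083 for Vav3 and 0.05628 for Smad1. Lyz2 (negative in the blocked fit) turned to 0.06354 without the replicate block, 0.1451 with the shared block, 0.01617 without the filter and 0.07132 from the 15 libraries. Without the filter Bambi turned to 0.01112 and Smad1 to 0.02058. Smad1 was 0.0005135 with limma and 0.05215 from the 15 libraries. With 1 library left out the sign turned for Id1, of low level (0.45 in the blocked fit), and for values near 0, with ranges of −0.04388 to 0.2086 for Neat1, −0.0009468 to 0.2598 for Smad7, −0.02189 to 0.1047 for Fabp5, −0.01007 to 0.07777 for Pbxip1, −0.09046 to 0.001555 for Nabp1, −0.2444 to 0.9624 for Id1, −0.02976 to 0.1461 for Bcl3, −0.01205 to 0.06407 for Ccnl1, −0.1137 to 0.04896 for Smad5, −0.02483 to 0.06277 for Vav3, −0.09299 to 0.1362 for Lyz2, −0.086 to 0.09867 for Bambi and −0.06611 to 0.05968 for Smad1. Depth limits the low genes: under 1 CPM only 0.244% of genes had an interval of the difference inside plus or minus 1.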
